A study of Mus musculus with 21 samples.

Results

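The immunoglobulin heavy variable (Ighv) genes were described in 12 inguinal skin-draining lymph node (SDLN) libraries, with 9 skin libraries for comparison. All genes whose symbol begins with Ighv in the lymph node table were taken, without use of their values, which gave 185 of the 55491 genes listed. The 185 had their own Ensembl identifiers but 183 distinct symbols, because *Ighv1-13* and *Ighv5-8* each stand for 2 genes.

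The study compared BALB/c wild-type (WT) mice with *Ifnk* transgenic (TG) mice, which carry the type I interferon gene *Ifnk* under the keratin 14 promoter of epidermal keratinocytes and were backcrossed from C57BL/6 to BALB/c. Nodes came from young mice of both genotypes without lesions, either left unirradiated or exposed to UVB at 250 mJ/cm2 on 3 days a week for 2 weeks and then observed for 2 weeks, with 3 libraries in each of the 4 groups. Skin came from unirradiated WT and TG mice aged 12 months, with 3 WT, 2 nonlesional (NL) TG and 4 lesional (L) TG libraries. No sex or animal is given for a library. For its comparison of TG with WT nodes after UVB, the paper gives as many mice per genotype as there are libraries. For the other groups, nothing states that libraries came from separate mice. The p-values therefore measure the spread between these libraries. Node and skin libraries were named and deposited as separate sets. A difference between the tissues therefore cannot be told apart from a difference between the sets. Libraries are named here by group and by the number in their labels.

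Each node library held between 27599809 and 36428435 counts and each skin library between 40499078 and 56511276. *Ifnk* itself had 0 counts in all 12 node libraries and in the 3 WT skin libraries, between 5 and 14 in the L libraries, and 6 and 0 in the 2 NL libraries, so NL library 3 showed no counts of the transgene's gene. B cell genes were abundant in nodes: *Cd79a*, a signalling subunit of the B cell receptor, had 8838 to 19578 counts, against 2 to 28 in skin. All 6 erythroid genes examined, such as the haemoglobin gene *Hba-a1*, fell with UVB over both genotypes, and their summed level ranged from 10.8 to 159.6 CPM (counts scaled to a common library total) in irradiated and from 121.5 to 304.0 CPM in unirradiated nodes. Their part in the Ighv results was not tested. In bulk RNA, fewer B cells and less RNA per cell cannot be told apart.

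An antibody heavy chain is made from a gene that each B cell assembles for itself, by joining 1 variable (V), 1 diversity (D) and 1 joining (J) segment upstream of the constant genes. The V segment supplies most of the antigen-binding domain, including the first and second hypervariable loops. V segments lie in a long array and are grouped into families by sequence likeness. The use of many V genes at like levels is the mark of a mixed B cell population, whereas the expansion of a few clones raises the share of the V genes they carry.

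In the GENCODE M21 annotation of GRCm38, the 185 genes all lie at chr12:113572927-116010093, over 2437 kb, and 183 are on the minus strand. The annotation types 113 as V genes, 70 as V pseudogenes and 2, the plus-strand entries of *Ighv1-13* and *Ighv5-8*, as IG_LV_gene. These 2 lie within the minus-strand entries of the same symbols. GRCm38 is the genome of C57BL/6J, and the array differs between that strain and BALB/c in gene content and sequence, so a count is the reads of these mice that were assigned to a C57BL/6J gene and the true BALB/c gene is not known.

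The V exons that lead the results are shown here as GENCODE M21 gives them, from the first codon after the leader peptide. The first set holds *Ighv2-9*, the most used gene in 10 of 12 node libraries, at chr12:113879096-113879388, *Ighv9-3* at chr12:114140692-114140985, *Ighv14-3* at chr12:114059845-114060138, and *Ighv8-12* at chr12:115647946-115648245, which was among the leading genes of skin and is printed without its last base. All are on the minus strand and are read 5′ to 3′, and capitals mark the codons of the first conserved cysteine, the conserved tryptophan and the second conserved cysteine of the immunoglobulin fold.
Ighv2-9: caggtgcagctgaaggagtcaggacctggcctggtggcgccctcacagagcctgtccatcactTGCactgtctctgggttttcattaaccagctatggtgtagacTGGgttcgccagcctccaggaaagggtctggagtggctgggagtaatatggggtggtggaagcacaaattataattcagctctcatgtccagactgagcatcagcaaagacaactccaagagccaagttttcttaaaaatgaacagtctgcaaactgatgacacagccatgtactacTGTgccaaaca
Ighv9-3: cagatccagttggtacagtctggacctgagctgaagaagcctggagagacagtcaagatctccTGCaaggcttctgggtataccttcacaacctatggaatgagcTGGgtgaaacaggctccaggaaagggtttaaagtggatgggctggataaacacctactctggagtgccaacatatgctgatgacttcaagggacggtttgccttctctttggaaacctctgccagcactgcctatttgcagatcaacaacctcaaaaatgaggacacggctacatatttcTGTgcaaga
Ighv14-3: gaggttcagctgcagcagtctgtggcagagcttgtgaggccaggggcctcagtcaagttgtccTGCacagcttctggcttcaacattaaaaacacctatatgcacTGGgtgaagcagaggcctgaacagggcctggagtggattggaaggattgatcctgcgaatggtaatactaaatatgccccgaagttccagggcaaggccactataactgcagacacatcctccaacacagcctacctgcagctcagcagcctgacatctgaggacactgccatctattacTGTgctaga
Ighv8-12: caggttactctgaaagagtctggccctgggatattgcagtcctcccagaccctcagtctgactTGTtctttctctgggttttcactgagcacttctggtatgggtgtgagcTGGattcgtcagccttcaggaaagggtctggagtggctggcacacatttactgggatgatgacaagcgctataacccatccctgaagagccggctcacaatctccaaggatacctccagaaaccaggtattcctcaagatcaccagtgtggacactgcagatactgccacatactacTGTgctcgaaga

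The second set holds the pseudogenes with the most counts in nodes, because they differ in reading frame. *Ighv1-14*, at chr12:114646572-114646865 on the minus strand, has no stop codon in the V reading frame, and capitals mark the same 3 codons as above. *Ighv4-2*, at chr12:114013144-114013439 on the minus strand, has an in-frame stop codon, which is in capitals.
Ighv1-14: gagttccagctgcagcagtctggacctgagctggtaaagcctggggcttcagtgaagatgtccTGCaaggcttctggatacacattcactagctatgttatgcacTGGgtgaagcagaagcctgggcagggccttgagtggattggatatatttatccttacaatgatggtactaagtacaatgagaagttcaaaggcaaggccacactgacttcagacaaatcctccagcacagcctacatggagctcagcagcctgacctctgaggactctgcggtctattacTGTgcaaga
Ighv4-2: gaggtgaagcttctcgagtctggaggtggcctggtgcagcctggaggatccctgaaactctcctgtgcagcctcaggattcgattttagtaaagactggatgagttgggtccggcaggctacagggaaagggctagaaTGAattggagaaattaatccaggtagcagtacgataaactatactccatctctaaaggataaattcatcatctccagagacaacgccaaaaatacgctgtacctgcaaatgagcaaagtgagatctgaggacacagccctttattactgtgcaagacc

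The third set is a pair of near-identical genes, and how well their reads can be told apart was not measured. *Ighv2-2* lies at chr12:113588267-113588559 and *Ighv2-4* at chr12:113653291-113653583, both on the minus strand. They differ at 6 of the 304 bases of the V exon, all 6 within the part printed, and capitals mark these bases.
Ighv2-2: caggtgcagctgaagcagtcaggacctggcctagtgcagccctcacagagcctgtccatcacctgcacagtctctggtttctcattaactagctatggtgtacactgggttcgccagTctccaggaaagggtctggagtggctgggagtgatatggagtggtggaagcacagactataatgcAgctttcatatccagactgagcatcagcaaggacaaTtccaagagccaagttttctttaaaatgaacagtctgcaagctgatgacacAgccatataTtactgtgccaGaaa
Ighv2-4: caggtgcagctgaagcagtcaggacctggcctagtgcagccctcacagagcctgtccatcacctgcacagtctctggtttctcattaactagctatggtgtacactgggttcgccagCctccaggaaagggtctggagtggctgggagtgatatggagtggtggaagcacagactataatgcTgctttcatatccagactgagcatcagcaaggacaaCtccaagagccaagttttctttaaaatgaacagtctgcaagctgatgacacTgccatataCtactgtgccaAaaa

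Over the 12 node libraries the Ighv genes held 24103 counts, and usage was spread over many genes with a long tail. At least 1 count was seen for 116 of the 185 genes, and 59 had a count in every library. The other 69 had 0 counts throughout, namely 49 pseudogenes, 19 genes typed as V genes and 1 typed as IG_LV_gene. Among the 19 is *Ighv11-1*, named after its values were seen, which shares 98.7% of its V exon with *Ighv11-2*, and *Ighv11-2* had 88 counts.

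*Ighv2-9* led with 7.52% ± 0.81 of Ighv counts (SD, n = 12), followed by *Ighv9-3* with 5.90% ± 0.69 and *Ighv14-3* with 4.88% ± 0.40. *Ighv2-2*, *Ighv1-14*, *Ighv5-17* and *Ighv5-4* came next at 4.60% ± 1.71, 4.47% ± 0.70, 4.45% ± 0.89 and 4.39% ± 0.67. The shares of *Ighv9-3*, *Ighv14-3* and of these 4 genes overlap between libraries, so their order is not resolved. Those of *Ighv2-9* and *Ighv9-3* also overlap, although *Ighv2-9* was the most used gene in most libraries. *Ighv1-9*, *Ighv5-6* and *Ighv10-1* completed the leading 10, at 3.46% ± 0.62, 3.14% ± 0.63 and 3.03% ± 0.35. Together the 10 held a mean of 45.8% of Ighv counts, and each of them had a count in all 12 libraries. The same 10 genes led when counts were divided by annotated exon length, which ranged from 244 to 480 bases, with a median of 351.

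*Ighv2-9* took 6.70%, 7.28% and 7.59% of Ighv counts in the WT nodes, and 7.56%, 7.26% and 8.76% in the WT + UVB nodes. Its shares in the TG nodes were 7.58%, 7.10% and 7.75%, and in the TG + UVB nodes 8.21%, 5.80% and 8.61%. The 4 groups overlapped, and the widest spread was within the TG + UVB nodes. *Ighv9-3* ranged from 4.40% in WT + UVB library 9 to 7.07% in WT + UVB library 7, so its extremes also fell within 1 group.

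**Figure D1:**
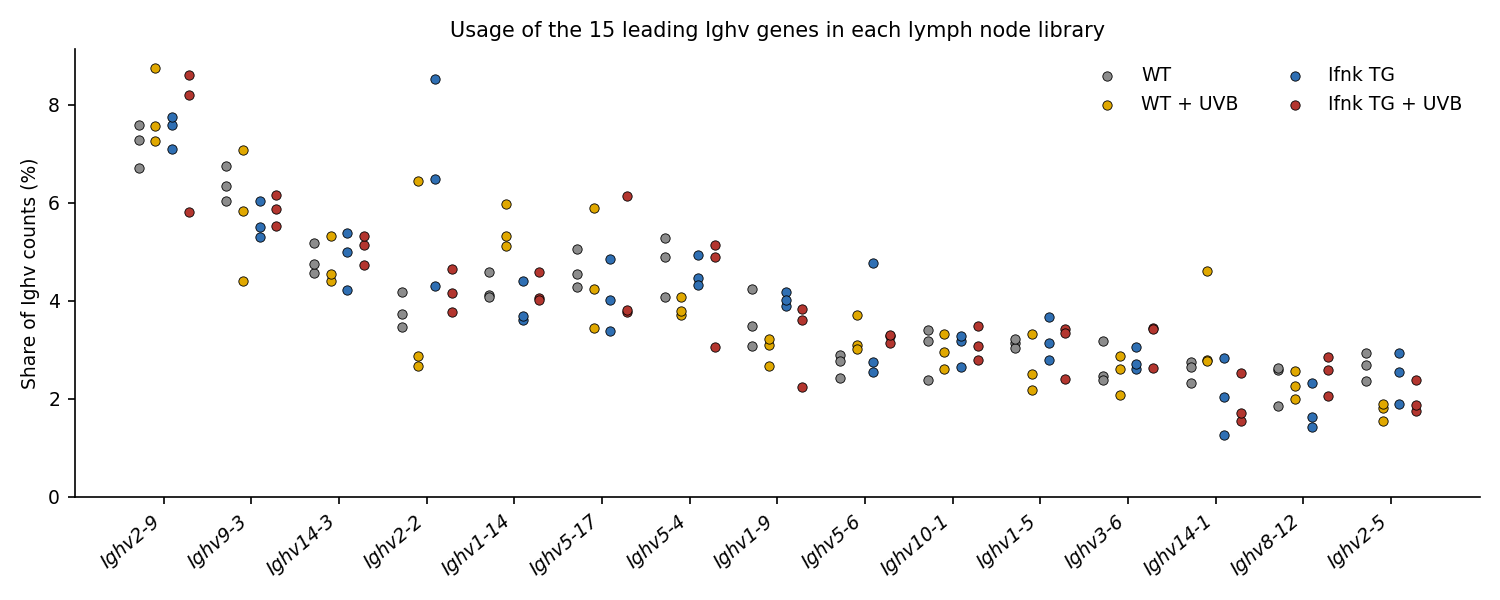
Share of Ighv counts, in percent, taken by each of the 15 genes with the highest mean share. Each point is 1 lymph node library, coloured by group (n = 3 each). *Ighv2-9* lies between 5.80% and 8.76%, and *Ighv2-2* has the widest range, from 2.66% to 8.52%.

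*Ighv2-9* was the most used gene in 10 of 12 node libraries. The exceptions were TG library 5, led by *Ighv2-2* with 114 of 1338 counts, and TG + UVB library 11, led by *Ighv9-3* with 84 of 1430 counts, just ahead of *Ighv2-9* with 83.

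Pseudogenes took 6.90% of all node Ighv counts, with a range of 5.94% to 8.77% over libraries. Most of this came from a pair of genes: *Ighv1-14* held 1056 of the 1662 pseudogene counts (63.5%) and *Ighv4-2* held 400 (24.1%). The V exon of *Ighv1-14* reads open in frame with the 3 conserved codons, as 106 of the 113 genes typed as V genes do and as 3 of the 70 pseudogenes do. The other 2 such pseudogenes, *Ighv1-17-1* and *Ighv1-30*, had 0 and 5 counts. The search took any cysteine codon near the end of the exon as the second cysteine. In *Ighv1-30* it lies at codon 91, against codon 96 in *Ighv1-14*, so it may not be the conserved one. Of the 67 remaining pseudogenes, 65 carry a stop codon in this frame, and together the 67 had 601 counts. *Ighv1-14* was not a low-level gene in any group, with shares of 4.08% to 4.58% in WT, 5.12% to 5.98% in WT + UVB, 3.62% to 4.41% in TG and 4.01% to 4.60% in TG + UVB nodes. The WT + UVB libraries were above all others, but its normalised level did not pass the test (log2 fold change 0.17, SE 0.27, adjusted p = 0.741, edgeR, UVB in WT nodes).

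Usage was higher toward the D segments when the array was cut by gene order into 4 stretches of like gene number. The 47 genes nearest the D segments took 45.3% ± 1.95 (SD, n = 12) of Ighv counts and the next 46 took 34.3% ± 1.19. The third stretch took 6.90% ± 0.90 and the most distant 13.5% ± 1.76. In every library the first stretch was above the second and the second above the most distant, since the ranges were 43.1% to 49.0%, 32.5% to 36.2% and 9.04% to 15.9%. Genes with counts were present in all 4 stretches, at 27, 31, 28 and 30 genes. From the D side outward, the stretches hold 0, 15, 42 and 36 members of the *Ighv1* family. Among the leading genes, *Ighv2-2* lies 15.3 kb from the first V gene, *Ighv2-9* 306 kb, *Ighv9-3* 568 kb and *Ighv1-14* 1074 kb. *Ighv8-12*, with 2.23% ± 0.44, was the most used of the distant genes, at 2075 kb.

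**Figure D2:**
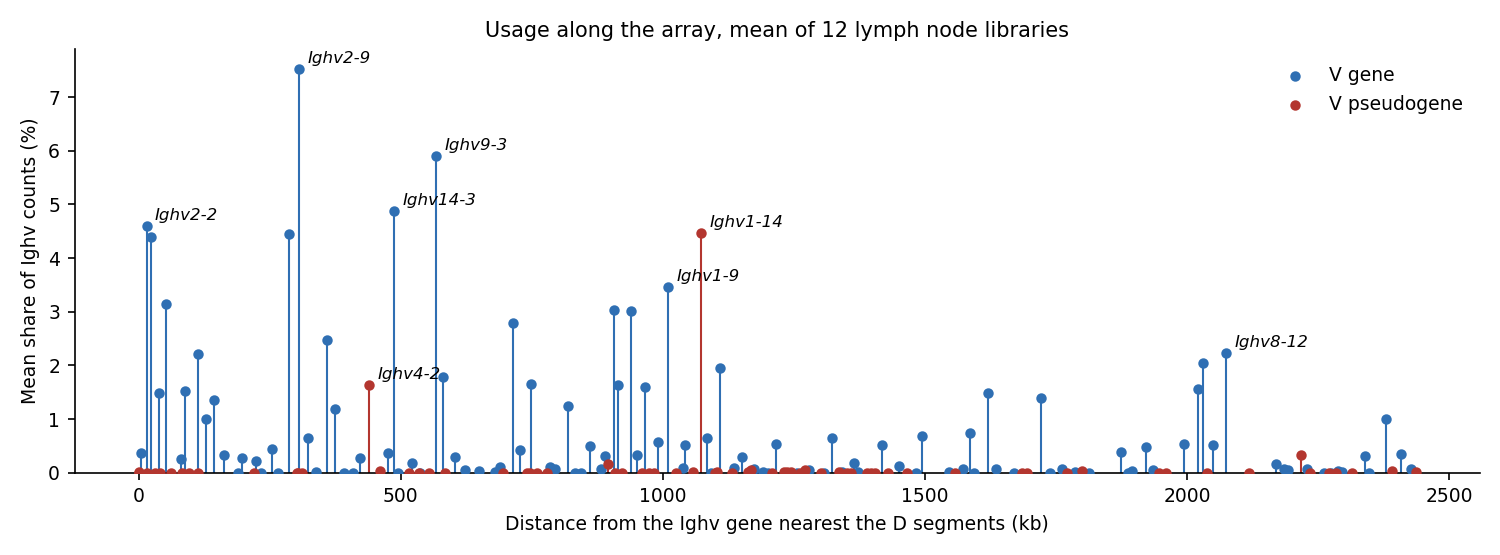
Mean share of Ighv counts over 12 lymph node libraries, in percent, against the distance in kb from the Ighv gene nearest the D segments, for V genes (blue) and V pseudogenes (red). The 2 genes typed as IG_LV_gene are not drawn. *Ighv1-14* and *Ighv4-2* are the pseudogenes that stand above the baseline, at 4.47% and 1.63%, and most of the tall stems lie on the left.

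By family, *Ighv1* (the large J558 family) took the most, 30.3% ± 1.60, but it also holds 93 of the 185 genes, or 50.3%. *Ighv2*, with 11 genes, took 17.9% ± 1.94, and *Ighv5*, with 22, took 15.7% ± 1.20. *Ighv14* and *Ighv9*, with 4 genes each, took 7.95% ± 0.74 and 6.50% ± 0.77. *Ighv8*, *Ighv3*, *Ighv10*, *Ighv4*, *Ighv7* and *Ighv6* followed with 5.37%, 4.65%, 3.35%, 2.83%, 2.48% and 1.82%, and their leading genes were *Ighv8-12*, *Ighv3-6*, *Ighv10-1*, *Ighv4-2*, *Ighv7-3* and *Ighv6-3*. The other 5 families were below 1% each, and *Ighv16*, with 1 gene, had 0 counts. Thus *Ighv2* took a greater and *Ighv1* a smaller part of the counts than of the GRCm38 genes in all 12 libraries.

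The 11 families of at least 1% were tested for UVB and genotype effects by exact two-sided permutation of libraries within the other factor, 22 tests in all. None passed after adjustment. The smallest raw p was 0.055 (adjusted p = 0.597), for *Ighv1* by genotype, which was 1.68 percentage points lower in TG than in WT nodes. Its shares were 30.3%, 32.5% and 30.4% in WT nodes and 29.7%, 27.4% and 28.0% in TG nodes, which did not overlap, whereas the irradiated groups, at 29.7%, 31.9% and 32.2% in WT and 29.4%, 31.0% and 31.4% in TG, did. *Ighv2* took 22.0% in TG library 5 and 21.4% in TG library 6, the highest 2 values of the 12, but 16.5% in TG library 4. The next highest value was 18.7%. *Ighv2-2*, a member of this family, took 8.52% and 6.49% in those libraries.

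**Figure D3:**
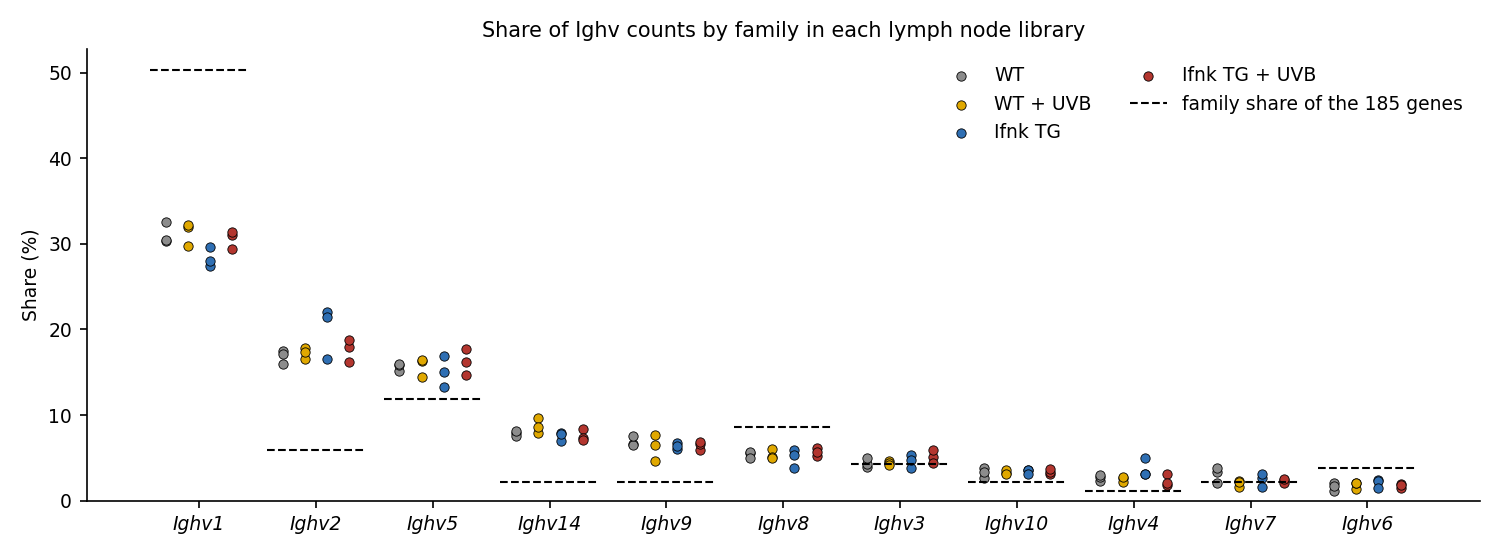
Share of Ighv counts, in percent, by family in each lymph node library (points, coloured by group, n = 3 each), with the family's share of the 185 genes as a dashed line. *Ighv1* lies below its line of 50.3% in all 12 libraries and *Ighv2* above its line of 5.95%.

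No UVB or genotype effect on the summed Ighv level or on the evenness of usage was larger than the spread between libraries. Ighv counts per library were 1820, 1937 and 2490 in WT nodes, and 2064, 1322 and 1953 in WT + UVB nodes. They were 3181, 1338 and 2220 in TG nodes and 1828, 1430 and 2520 in TG + UVB nodes. The highest and the lowest summed level of the 12 both came from TG nodes, 86.0 CPM in library 4 and 38.0 CPM in library 5. Scaled by TMM, the level was 64.0 ± 11.1 CPM in WT, 56.6 ± 7.50 in WT + UVB, 62.6 ± 24.0 in TG and 60.0 ± 14.9 in TG + UVB nodes (SD, n = 3 each). The UVB effect was -0.09 on the log2 scale (p = 0.665, adjusted p = 0.872, exact two-sided stratified permutation) and the genotype effect -0.02 (p = 0.955, adjusted p = 0.955, same permutation test). This design allows 400 assignments and a smallest p of 0.005, and p-values were adjusted over 10 tests. A pair of groups alone, 3 libraries against 3, cannot go below 0.10, so such pairs are given as values.

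The level of B cell markers also differed between libraries. TG library 5, lowest in Ighv, was also lowest in the summed level of 8 naive and follicular B cell markers, at 1780 CPM against 2633 to 3564 CPM in the others. There were 12.9 to 16.2 Ighv counts per 100 *Cd79a* counts, so this ratio varied less than the counts themselves. Relative to the 8 heavy chain constant genes, which include *Ighm* and *Ighd* of naive B cells, they were 3.51% ± 0.19 in WT, 3.30% ± 0.17 in WT + UVB, 3.80% ± 0.47 in TG and 3.38% ± 0.39 in TG + UVB nodes. The UVB effect on this share was -0.31 percentage points (p = 0.120, adjusted p = 0.872, exact permutation) and the genotype effect 0.18 (p = 0.370, adjusted p = 0.872, exact permutation). The kappa light chain variable (Igkv) genes, 160 in number, had 3.79 to 4.61 counts for each Ighv count. The 20 D and 4 J segments of the heavy chain had 0 counts in every library.

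Concentration was measured by the effective number of genes (the inverse Simpson index, the number of equally used genes that would give the same chance of drawing the same gene in a pair of draws). It was 34.3, 32.8 and 31.1 in WT nodes and 30.3, 33.6 and 31.9 in WT + UVB nodes. In TG nodes it was 32.3, 28.5 and 32.1, and in TG + UVB nodes 30.1, 35.8 and 32.2. All 4 groups overlapped, with means of 32.7 ± 1.56, 31.9 ± 1.68, 30.9 ± 2.14 and 32.7 ± 2.92. The UVB effect was 0.02 (p = 0.715, adjusted p = 0.872, exact permutation) and the genotype effect -0.03 on the log2 scale (p = 0.655, adjusted p = 0.872, exact permutation).

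The most used gene took 5.87% to 8.76% of Ighv counts and the 10 most used took 43.5% to 51.3%. For the most used gene the UVB effect was 0.14 and the genotype effect 0.23 percentage points (p = 0.785 and p = 0.690, both adjusted p = 0.872, exact permutation). For the 10 most used they were -0.59 and 0.93 percentage points (p = 0.680 and p = 0.535, both adjusted p = 0.872, exact permutation). Brought to an equal depth of 1322 counts, the libraries held between 72.9 genes with a count, in TG library 5, and 86.3, in WT + UVB library 7.

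**Figure D4:**
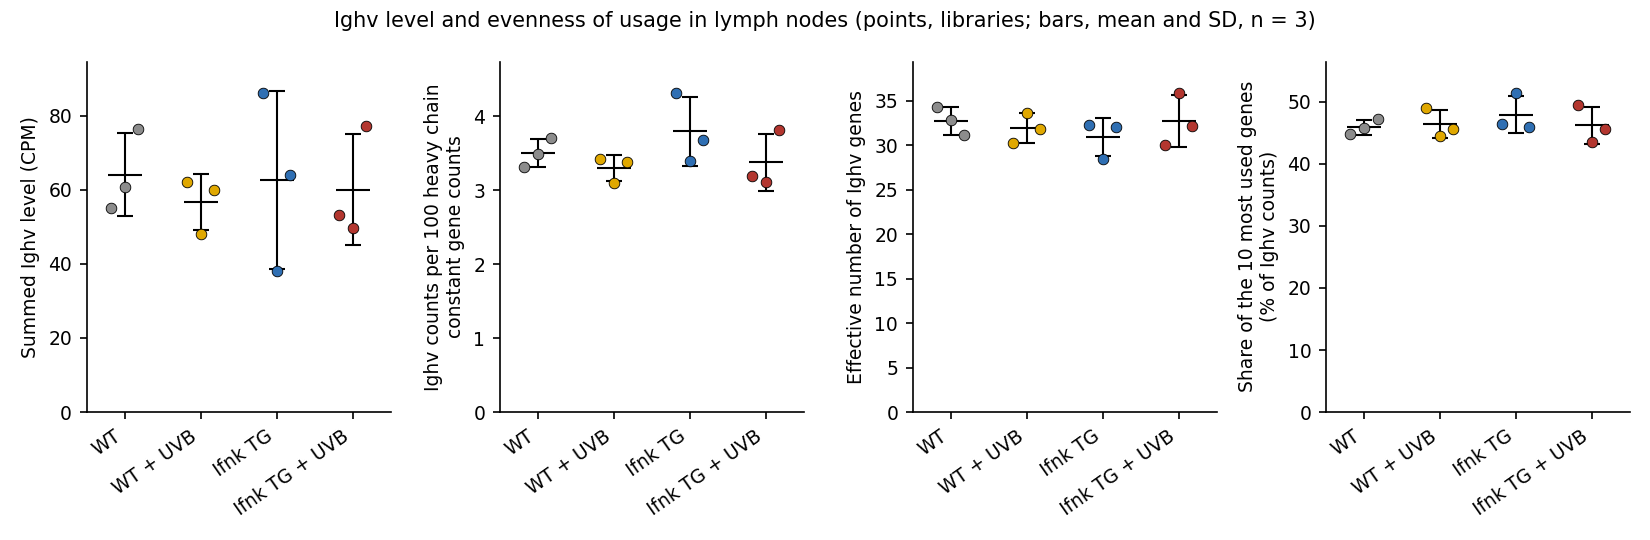
Summed Ighv level (CPM), Ighv counts per 100 heavy chain constant gene counts, effective number of Ighv genes and share of the 10 most used genes (percent of Ighv counts) in the 4 lymph node groups. Points are libraries, and bars give the mean and SD (n = 3). The groups overlap in each panel, and the TG nodes span 38.0 to 86.0 CPM.

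Of the 185 genes, 51 had enough counts to be tested in nodes, and these held 94.0% of the Ighv counts. None was called at an adjusted p under 0.05 by edgeR in any comparison, nor by DESeq2. For UVB in WT nodes, 4.98% of the 16173 genes tested were called and 0 of 51 Ighv genes, with 1 at an unadjusted p under 0.05 by each tool, against 26.3% of all genes by edgeR. Of the 51, 15 were higher and 36 lower, with a median log2 fold change of -0.20 against -0.00485 for all genes tested. For UVB in TG nodes, 0% of all genes were called, and 0 Ighv genes were, also at an unadjusted p under 0.05 by either tool, against 9.32% of all genes by edgeR, with 23 higher and 28 lower. Over both genotypes together, UVB called 8.61% of genes and 0 Ighv genes, with 1 at an unadjusted p under 0.05 by each tool against 28.2% of all genes by edgeR, 15 higher and 36 lower.

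For TG against WT, 0% of genes were called in unirradiated nodes and 0% after UVB, and no Ighv gene was. At an unadjusted p under 0.05 there were 0 Ighv genes in either by either tool, against 3.39% and 6.99% of all genes by edgeR. The median log2 fold change of the 51 was -0.06 and 0.16. Genotype over both treatments called 0.00618% of genes, which is 1 gene, and 0 Ighv genes, with 1 at an unadjusted p under 0.05 by edgeR, against 4.66% of all genes, and 0 by DESeq2. The test of whether the UVB effect differed between genotypes called 0% of genes and 0 Ighv genes, with 1 at an unadjusted p under 0.05 by edgeR, against 5.45% of all genes, and 0 by DESeq2. The median standard error of an Ighv gene's log2 fold change was 0.49 for UVB in WT nodes and 0.34 for UVB over both genotypes, so changes of the size of these errors were not detectable here.

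The genes at an unadjusted p under 0.05 by edgeR were named after their values were seen. For UVB it was *Ighv2-5*. It had 43, 57 and 67 counts in WT and 32, 24 and 37 in WT + UVB nodes, and 60, 34 and 65 in TG and 32, 34 and 47 in TG + UVB nodes. The WT groups did not overlap and the TG groups did. Its log2 fold change over both genotypes was -0.56 (SE 0.23, adjusted p = 0.127, edgeR), and it shares 97.7% of its V exon with *Ighv2-4*. For the difference of the UVB effect between genotypes it was *Ighv1-47*, with 23, 11 and 9 counts in WT, 4, 7 and 7 in WT + UVB, 12, 3 and 10 in TG and 8, 16 and 11 in TG + UVB nodes (log2 difference 1.82, SE 0.83, adjusted p = 0.848, edgeR). For genotype it was *Ighv1-15*, with 2 to 13 counts in 5 of the 6 TG nodes and 17 in the other, against 9 to 25 in WT nodes (log2 fold change -0.93, SE 0.41, adjusted p = 1.00, edgeR). The groups overlapped for both genes by genotype.

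The leading genes varied within groups. *Ighv2-9* had 122, 141 and 189 counts in WT, 156, 96 and 171 in WT + UVB, 241, 95 and 172 in TG and 150, 83 and 217 in TG + UVB nodes. Its log2 fold change with UVB was -0.05 (SE 0.34) in WT and -0.03 (SE 0.34) in TG nodes. *Ighv2-2* had 76, 67 and 93 counts in WT, 133, 38 and 52 in WT + UVB, 137, 114 and 144 in TG and 76, 54 and 117 in TG + UVB nodes. The unirradiated groups did not overlap, with TG above WT, and the log2 fold change was 0.61 (SE 0.37, adjusted p = 1, edgeR).

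Some genes departed in 1 library alone. Against the pooled usage of the other 11 libraries, the chi-square per degree of freedom of a library was 1.39 in WT library 3 and 3.86 in TG library 5, and the other 10 lay between. The largest departures of a single gene in each group were *Ighv2-2* in TG library 5, at 8.52% (95% Wilson interval 7.14% to 10.1%) against at most 6.49% in any other library, and *Ighv14-1* in WT + UVB library 7, at 4.60% (3.78% to 5.59%) against at most 2.83%. In TG + UVB library 11 *Ighv1-54* took 3.01% (2.24% to 4.03%) against at most 1.86%, and in WT library 2 *Ighv7-3* took 3.36% (2.64% to 4.25%) against at most 2.36%. Each of these genes was picked as the largest departure among all 185. The intervals cover counting error only and not this choice, so they are no test of a departure. *Ighv2-2* also had a high share, 6.44%, in WT + UVB library 7. Its near-copy *Ighv2-4* had between 2 and 9 counts in each library, against 38 to 144 for *Ighv2-2*, and 97% or more of the V exon is shared with another member for 31 of the 185 genes, which held 19.4% of Ighv counts. How the reads of such pairs were divided rests on RSEM's estimate, so the values of either gene alone are uncertain.

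Libraries of the same group and of different groups were alike to a similar degree, which was not tested. The rank correlation of usage over the 51 tested genes had a median of 0.889 over the 12 pairs within groups and 0.879 over the 54 pairs between groups. These values describe the libraries and share the genes' base usage. The usage that a pair of libraries shared was 81.9% to 88.4% within groups and 79.2% to 89.0% between groups.

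While no Ighv gene was called, some constant genes were in the comparison of UVB over both genotypes, which called 8.61% of all genes. Of 8 heavy chain constant genes, *Ighg1* and *Igha*, which encode the IgG1 and IgA classes that B cells switch to, rose with UVB over both genotypes and the other 6 did not pass. Their log2 fold changes were 2.55 (SE 0.59, adjusted p = 0.036) and 1.51 (SE 0.43, adjusted p = 0.0483, edgeR). *Ighm*, the constant gene of IgM, had a log2 fold change of 0.04 (SE 0.11, adjusted p = 0.840, edgeR). Constant gene counts, like V gene counts, are BALB/c reads assigned to C57BL/6J genes, so IgG sums and class shares carry the same limit. The 4 genes for IgG (*Ighg1*, *Ighg2b*, *Ighg2c* and *Ighg3*) summed to 580, 1360 and 437 counts in WT and 3814, 1076 and 1379 in WT + UVB nodes. They summed to 1205, 652 and 1684 in TG and 3186, 1395 and 1451 in TG + UVB nodes. WT + UVB library 7 and TG + UVB library 10 were thus the highest. Genes of classes other than IgM and IgD took 0.748% to 7.00% of constant gene counts in nodes.

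The counts that follow stand against the same 8.61% of all genes, and a share of 1 in 8 is near it. Of the 8 naive and follicular B cell markers only *Cr2*, the complement receptor CD21, rose with UVB over both genotypes (log2 fold change 0.42, SE 0.11, adjusted p = 0.0398, edgeR). None of the 8 germinal centre markers and none of 8 tested plasma cell markers passed. The germinal centre markers still had a median log2 fold change of 0.96. Their summed level was 87.3 to 101.6 CPM in WT and 134.3 to 190.6 in WT + UVB nodes, without overlap. It was 82.1 to 136.8 CPM in TG and 109.1 to 180.3 in TG + UVB nodes, which overlapped, and the sum was not tested. Of 7 tested genes of recombination and diversification, *Msh6*, a mismatch repair gene, rose and *Apex1*, a base excision repair gene, fell, by log2 fold changes of 0.27 and -0.24 (adjusted p = 0.025 and 0.0428, edgeR). None of the 4 light chain constant genes passed. Of 8 T cell markers, *Trbc1* and *Trbc2* fell, and their part in the Ighv values was not tested.

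In skin, Ighv genes had few counts or none, and the counts of the 3 skin groups overlapped. WT library 10 had 27 counts and WT libraries 8 and 9 had 0. NL library 2 had 65 and NL library 3 had 0. The L libraries 4, 5, 6 and 7 had 13, 35, 62 and 3. The 95% Poisson intervals, which cover counting error only, were 17.8 to 39.3 for WT library 10, 50.2 to 82.8 for NL library 2 and 47.5 to 79.5 for L library 6. For the 3 libraries with 0 this interval reaches 3.69 counts. The separate limit that a count of 0 allows, taken as 3 counts per library, is 6.53e-06% to 7.16e-06% of their totals. Ighv counts were at most 0.000147% of a skin library, against 0.00382% to 0.00873% of a node library.

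Of the 185 genes, 26 had a count in skin, and these 26 also had one in nodes. No Ighv gene had enough counts to be tested by edgeR, in comparisons that called 43.1% of all genes (L against WT), 25% (L against NL) and 0% (NL against WT). DESeq2 gave an adjusted p to 5, 3 and 0 Ighv genes, called none, and had 0 at an unadjusted p under 0.05. The usage in skin libraries came from few genes. NL library 2 was led by *Ighv14-3* and *Ighv8-12*, with 25 counts each out of 65, and L library 6 by *Ighv2-9*, *Ighv1-54* and *Ighv5-17* with 21, 13 and 11 of 62. L library 5 spread 35 counts over 12 genes, led by *Ighv8-12* with 7. L library 4 was led by *Ighv1-33* with 5 of 13, and the 3 counts of L library 7 were all of *Ighv5-12*. WT library 10 was led by *Ighv2-9* with 8 of 27.

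The effective number of genes was 6.38 in WT library 10, 3.38 in NL library 2 and 4.33, 11.2 and 5.25 in L libraries 4, 5 and 6. By mean share over the 4 L libraries the leading genes were *Ighv5-12*, *Ighv8-12*, *Ighv1-33*, *Ighv2-9* and *Ighv1-14*, of which *Ighv5-12* owes its place to the 3 counts of library 7. *Ighv8-12* took 20% of library 5 (Wilson interval 10.0% to 35.9%), and *Ighv2-9* 33.9% of library 6 (23.3% to 46.3%).

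Some skin libraries held many *Ighm* counts with no Ighv counts. *Ighm* had 4508, 4483 and 2676 counts in WT, 10916 and 5044 in NL and 1640, 837, 2321 and 2834 in L skin, so that WT libraries 8 and 9 and NL library 3 held at least 4483 *Ighm* counts with 0 Ighv counts, 7, 0 and 1 Igkv counts and 5, 2 and 13 *Cd79a* counts. NL library 2, with the most *Ighm* counts of the skin libraries, also had the most Ighv counts, and the relation was not tested. For 100 *Ighm* counts there were 0 to 4.18 Ighv counts in skin and 4.93 to 7.20 in nodes. Of 6 heavy chain constant genes tested in L against WT skin, a comparison that called 43.1% of all genes, *Ighm* and *Ighd* fell, by log2 fold changes of -1.27 (SE 0.35, adjusted p = 0.0197) and -1.51 (SE 0.53, adjusted p = 0.0467, edgeR). *Igha* rose (4.66, SE 1.36, adjusted p = 0.0258, edgeR), and the other 3 did not pass. Of 9 plasma cell markers in the same comparison, *Ell2*, *Mzb1*, *Prdm1* and *Sdc1* rose and *Irf4* fell. The summed level of the 9 was 502.2 to 553.1 CPM in WT, 677.2 to 715.3 in NL and 845.2 to 1317 in L skin. In nodes it was 192.5 to 303.3 CPM. WT skin was thus above every node library, although WT skin libraries 8 and 9 had 0 Ighv counts. The sum therefore cannot be read as an amount of plasma cells in skin. Of 8 T cell markers 5 rose, with a summed level of 34.8 to 46.0 CPM in WT and 37.7 to 85.6 in L skin. The part of these cell types in the Ighv counts was not tested. L library 6, highest in Ighv among L skin, also had the most *Igha* (4379 counts) and *Jchain*, the joining chain of secreted IgA and IgM (3645 counts), and 805 Igkv counts, or 13.0 for each Ighv count.

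**Figure D5:**
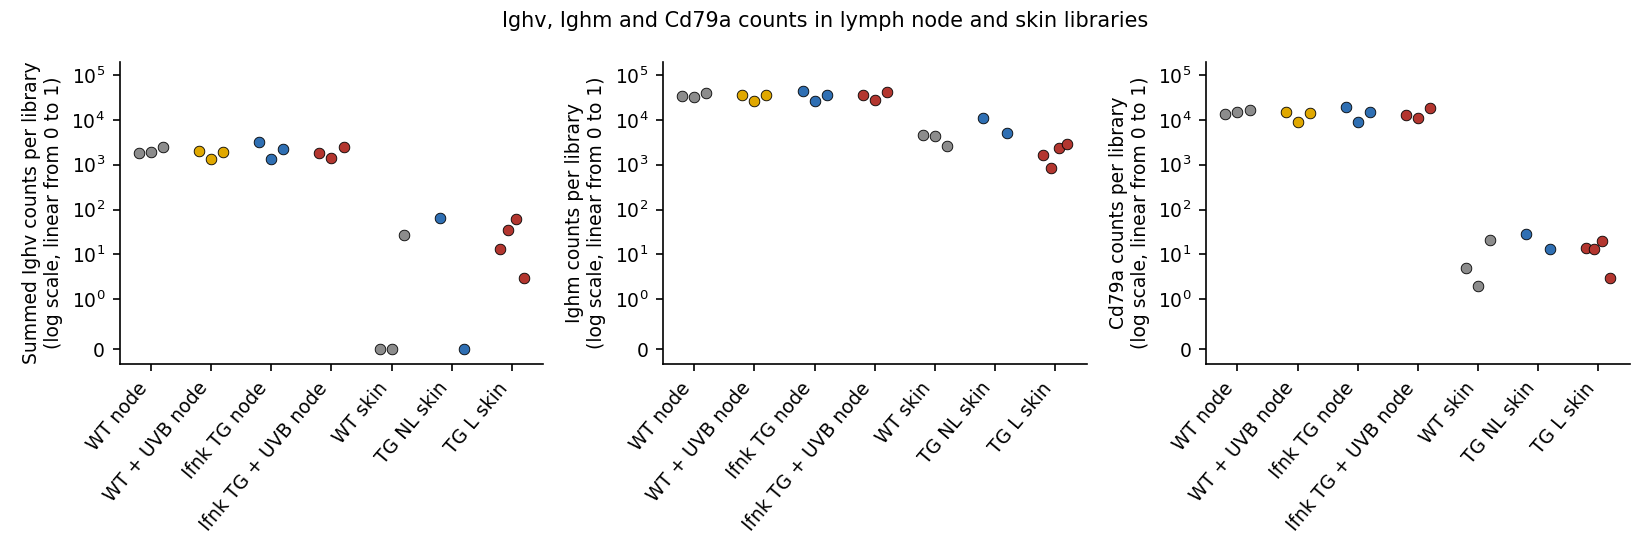
Counts per library of all Ighv genes summed, of *Ighm* and of *Cd79a*, in 12 lymph node and 9 skin libraries, on a log axis that is linear from 0 to 1. Each point is 1 library. Summed Ighv counts fall from between 1322 and 3181 in nodes to between 0 and 65 in skin, and *Ighm* from between 26318 and 44155 to between 837 and 10916.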

How the data were processed

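Groups were taken from the labels. The authors trimmed paired reads of poly-A libraries with cutadapt 4.8, aligned them to GRCm38 with STAR 2.7.8a and estimated counts per gene with RSEM 1.3.3, per the labels' notes and the paper's methods. They deposited these expected counts, which are whole numbers and not normalized. The annotation release that they used is not given in the sources used here. Gene positions, types and V exon sequences were added from GENCODE M21 by Ensembl identifier, and all 185 matched.

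The members and lists were chosen with earlier results of these data known. Counts were tested by tissue with edgeR 4.0.16 in R 4.3.3: filterByExpr (at least 10 counts in enough libraries, 15 in total), TMM scaling and the quasi-likelihood F-test, with all groups of a tissue in 1 fit and Benjamini-Hochberg adjustment over all genes tested, at a threshold of 0.05. DESeq2 1.42.0 was an alternative. Standard errors were derived from the F statistic. Shares, the effective number and the level were computed per library in Python 3.11.15, and the UVB and genotype effects were tested by exact two-sided permutation of libraries within the other factor, CPM and the effective number on the log2 scale. The pipeline was run on simulated data with known changes. For the effective number these were drawn from 1 shared usage, without spread between libraries beyond counting error, and with a large rise of the leading gene. They do not show how small a change could be found here.

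Genes named are the 10 with the highest mean share in nodes, the most used gene of each library and of each family of at least 1%, the gene with the largest departure in 1 library of each node group, and the 5 with the highest mean share in L skin. Other genes were named after their values were seen. In nodes, the floor of 3 counts equals between 0.0943% and 0.227% of the Ighv counts. There are no molecular identifiers, so intervals and floors cover counting error only.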

Additional observations from a re-analysis of the deposited data

Results flagged for a closer look

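In L skin, the 10 most used Ighv genes took 94.3% of Ighv counts in library 5 and 100% in the other 3 L libraries, and library 5 was picked out by Dixon's test for 1 value far from the rest. It had counts for 12 Ighv genes and the others for 4, 10 and 1, so the share in those others is 100% by construction. Any library with more than 10 genes would have been picked out beside them, and the test is void here. None of the level or concentration measures in nodes moved in opposite directions with UVB in WT and TG nodes without overlap.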

How the results depend on the processing

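Over the 10 comparisons, the count of Ighv genes called was 0 under all 155 alternatives, which were DESeq2, RLE size factors, no filter on low counts, scaling by summed Ighv counts (nodes), a fit of the compared groups alone and each library left out. Between 42 and 116 Ighv genes were tested with edgeR in nodes over these. DESeq2 gave an adjusted p to as few as 7. In skin the main edgeR fit tested 0 Ighv genes, and the alternatives at most 26, or at most 3 with a library left out. The counts of 0 in skin were thus largely fixed in advance. In node comparisons that called 0% of all genes, a count of 0 Ighv genes says little about these genes. The 10 tests of level and concentration stayed on the same side of the threshold under all 148 alternatives (unscaled totals, RLE factors, pseudogenes left out, counts per exon length, *Ighv2-9* left out, Shannon entropy and each library left out), with adjusted p between 0.450 and 0.990, although the sign of a difference turned in 18 of them. No family passed per exon length or without any 1 library, the smallest raw p being 0.010 (adjusted p = 0.220, exact permutation) without WT + UVB library 7. Scaling by summed Ighv counts and rarefaction could not be run in skin because 3 libraries have 0 Ighv counts. No paired analysis was possible because the labels do not say which animal a library came from. Outside the irradiated node groups, whether any libraries share an animal is not known. Depth limits the single genes more than the sums: a node library held 1322 to 3181 Ighv counts.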

Other observations

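The ratio of Igkv to Ighv counts was 4.04, 3.89 and 3.87 in TG nodes and 4.44, 4.56 and 4.44 in TG + UVB nodes, which did not overlap, and 4.12, 4.61 and 3.79 in WT and 4.10, 3.94 and 4.31 in WT + UVB nodes, which did. This ratio was looked at after its values were seen, and it was not tested. Ighv counts per 100 *Cd79a* counts ranged from 14.6 to 16.2 in TG and from 12.9 to 14.0 in TG + UVB nodes, without overlap. They ranged from 13.2 to 14.8 in WT and from 13.45 to 14.96 in WT + UVB nodes, which overlapped, and neither difference was tested.

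The switched classes took 20.4%, 57.5%, 69.9% and 8.26% of heavy chain constant gene counts in the 4 L libraries, 8.99% in WT library 10, and between 0.533% and 1.10% in the other WT and the NL skin libraries. The WT and NL libraries at 0 Ighv counts were all among the latter. NL library 2, with the most Ighv counts in skin (65), was also among them. *Ighm* held 4508 of 4688 constant gene counts in WT library 8 and 10916 of 11105 in NL library 2. The share in these libraries thus rests on *Ighm*, whose counts were high although *Cd79a* had only 2 to 28 counts. The relation to Ighv counts was not tested.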
